A study of Mus musculus with 8 samples.

Results

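Tumour necrosis factor (TNF), the lymphotoxins and their receptors were followed in splenic B cells through the messages of 8 genes: Tnf, Lta and Ltb, which encode the ligands, and Tnfrsf1a, Tnfrsf1b, Ltbr, Tnfrsf14 and Fas, which encode receptors. The genes were taken by name, and were 8 of the 37583 gene identifiers in the counted data. All 8 passed the filter on low counts and were among the 13964 genes tested. RNA was sequenced from splenic B cells of C57BL/6 mice (strain B6) in 8 libraries. The TLR group (2 libraries, Bregs-TLR in the series title) received CpG ODN1668, an oligonucleotide that activates TLR9, for 3 days, with LPS, PMA and ionomycin present in the last 5 hours. The CpG group (3 libraries, Bregs-CpG) received CpG ODN1668 for 3 days without that last step. The naive group (3 libraries) held naive B cells, whose labels give no stimulation. All mice were of the same strain, no genetic change is given, and the labels name no time-matched culture without CpG and no age or sex. Nothing in the labels says whether libraries of a group came from different animals or cultures, and the tests reflect the spread between libraries alone, which may be technical. The series title calls the treated cells regulatory B cells (Bregs), and the labels give no sort for cells that make IL-10.

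TNF is made as a trimer on the cell surface and can be shed by the protease ADAM17. It binds TNFR1 (Tnfrsf1a), which carries a death domain and can switch on NF-kB or cell death, and TNFR2 (Tnfrsf1b), which has no death domain and is found mainly on immune and endothelial cells. Lymphotoxin alpha (Lta) binds the same receptors as a secreted homotrimer. Joined to the membrane protein lymphotoxin beta (Ltb) it instead signals through the lymphotoxin beta receptor (Ltbr), mainly on stromal and myeloid cells, and in this way B cells are known to maintain follicular dendritic cells and the compartments of the spleen. Tnfrsf14 encodes HVEM, which binds LIGHT (Tnfsf14), lymphotoxin alpha and the inhibitory receptor BTLA. Fas is the death receptor for Fas ligand and is known to be high on germinal centre B cells.

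Tnf, Lta and Ltb lie side by side on chromosome 17, within the major histocompatibility complex. The 250 bases before the RefSeq start of each are shown because the ligand results turn on these adjacent genes, whose order across the groups differed. Coordinates are those of GRCm38.p6, the build of the RefSeq table, and the deposited counts used mm9. Sequences run 5′ to 3′ on the gene's own strand. Capitals mark matches on either strand to the letters GGAAA (the core recognised by NFAT factors), the 10-base kB consensus bound by NF-kB, TGANTCA (the AP-1 element) and TGACGTCA (the cAMP element).
Tnf, chr17:35202008-35202257, minus strand: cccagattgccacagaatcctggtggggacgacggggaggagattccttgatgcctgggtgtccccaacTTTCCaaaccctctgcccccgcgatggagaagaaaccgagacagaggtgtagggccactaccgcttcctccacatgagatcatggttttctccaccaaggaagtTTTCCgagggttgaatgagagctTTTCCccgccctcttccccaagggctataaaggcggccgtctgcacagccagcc
Lta, chr17:35205352-35205601, minus strand: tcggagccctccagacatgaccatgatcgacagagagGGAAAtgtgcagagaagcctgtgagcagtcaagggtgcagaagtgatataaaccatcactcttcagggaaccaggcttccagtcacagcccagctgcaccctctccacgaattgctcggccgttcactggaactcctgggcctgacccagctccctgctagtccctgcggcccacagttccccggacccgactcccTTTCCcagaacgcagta
Ltb, chr17:35194257-35194506, plus strand: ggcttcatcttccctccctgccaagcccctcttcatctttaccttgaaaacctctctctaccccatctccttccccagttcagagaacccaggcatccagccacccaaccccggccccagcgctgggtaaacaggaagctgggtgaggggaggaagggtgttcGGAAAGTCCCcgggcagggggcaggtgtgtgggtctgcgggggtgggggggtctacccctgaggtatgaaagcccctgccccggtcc
GGAAA was found 3 times before Tnf, 2 times before Lta and 1 time before Ltb, and 55.6% of 32851 windows of this length held it. The kB consensus was found before Ltb, where it started 87 bases before the start and overlapped the GGAAA match, and not in the windows of Tnf or Lta. It was present in 3.9% of all windows. TGANTCA (6.75% of windows) and TGACGTCA (1.55%) were not in these windows, and among the 8 genes TGANTCA was found before Fas alone. A match describes letters only, and a missing one says only that they are not in this window.

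The 3′ untranslated regions of the ligand messages also differ in AU-rich letters, through which tristetraprolin and related proteins are known to shorten the life of the Tnf message. In the reference transcripts, the region of Tnf has 764 bases and holds the pentamer ATTTA 8 times and the nonamer TTATTTATT 5 times. As many nonamers were present in 0.157% of 21020 genes with an annotated region. The densest stretch of 30 bases of Tnf, which starts at base 437 of the region and holds 5 pentamers (in capitals), is shown because Tnf held more pentamers and nonamers than the other 7 genes.
Tnf, AU-rich site: attATTTAttATTTATTTAttATTTATTTA
The region of Lta has 572 bases with 3 pentamers and 1 nonamer, and 6.98% of genes hold at least 1 nonamer. The region of Ltb has 156 bases and neither. Among the receptors, Tnfrsf1b had 2 pentamers in 2324 bases and Ltbr 1 in 659 bases, while Tnfrsf1a, Tnfrsf14 and Fas had none, against 61.7% of genes with at least 1.

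Depth was similar across libraries, with 15804311 to 20069272 counts in genes, and 1 count was worth 0.0498 to 0.0633 CPM (counts scaled to library depth) by these totals. Levels below are in CPM after TMM scaling between libraries, which shifts these values slightly. Summed CPM of 6 B cell markers was 2555 and 2728 in TLR libraries, 8507 to 12756 in CpG libraries and 10017 to 10685 in naive libraries, and all 6 were called lower in TLR cells than in both other groups. Summed markers of macrophages, natural killer cells and T cells were higher in every naive library than in any stimulated one: 12 macrophage and monocyte markers summed to 14.6 and 20.03 CPM in TLR libraries, 18.8 to 41.5 CPM in CpG libraries, and 1301, 315 and 168 CPM in naive replicates 1 to 3. For 8 natural killer cell markers the sums were 1.36 and 1.70 CPM in TLR, 1.74 to 2.99 CPM in CpG and 18.03 to 84.0 CPM in naive libraries, and for 10 T cell markers they were 37.1 and 34.0 CPM in TLR, 259 to 280 CPM in CpG and 309 to 349 CPM in naive libraries. The T cell sum came mostly from Cd2, Lck and Il7r, and 7 of the 10 genes were called lower in CpG than in naive cells and 1 higher. The other marker sums overlapped between CpG and naive libraries. For 8 dendritic cell markers they were 13.2 and 27.2 CPM in TLR, 26.8 to 52.7 CPM in CpG and 28.6 to 69.8 CPM in naive libraries. Of these 8, 5 were called lower in CpG than in naive cells (Zbtb46, Clec9a, Siglech, Itgax and Batf3) and 1 higher (Ccr9). In TLR against naive cells 4 were called lower and 1 higher. Flt3 averaged 20.5 CPM in CpG and 9.81 CPM in naive libraries, and Ccr9 averaged 11.95 and 3.13 CPM. The 6 neutrophil markers summed to at most 21.25 CPM in any library. The 7 stromal and endothelial markers summed to 231 and 172 CPM in TLR, 222 to 314 CPM in CpG and 293 to 337 CPM in naive libraries. Nearly all of that sum was Pecam1 (means of 200.5 CPM in TLR, 274 CPM in CpG and 308 CPM in naive libraries). Each of the others averaged at most 2.78 CPM in any group. Library names of replicate 1 in each group begin with a different prefix from the others, whose meaning is not given. CPM is a share of a library, and in whole preparations fewer cells of a type and less RNA per cell cannot be told apart.

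The ligand genes moved in different orders across the groups. All 3 were lower in CpG cells than in naive cells. In TLR cells Tnf was the highest of the groups, Lta stood above CpG cells and far below naive cells, and Ltb was the lowest of the groups.

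Tnf, the inflammatory cytokine gene, had 42.5 and 53.2 CPM in the TLR libraries, 5.81, 7.59 and 7.20 CPM in the CpG libraries, and 22.3, 25.7 and 23.4 CPM in the naive libraries. No library of any group overlapped with another group, a separation seen in 56% of all tested genes for CpG against naive cells, 59.3% for TLR against CpG cells and 78.1% for TLR against naive cells. Tnf fell 3.46-fold in CpG cells relative to naive cells (log2 fold change -1.79 ± 0.16 SE, edgeR quasi-likelihood test with Benjamini-Hochberg adjustment, adjusted p = 2.79e-05). It was 6.95-fold higher in TLR cells than in CpG cells (2.80 ± 0.17, adjusted p = 6.02e-06). Against naive cells the TLR level was 2.01-fold higher (1.01 ± 0.16, adjusted p = 0.000498). The last 2 comparisons share the TLR libraries and the first 2 share the CpG libraries, so the 3 values of a gene are not independent of each other.

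Lta, whose product is either secreted or bound to lymphotoxin beta, had 3.00 and 5.11 CPM in the TLR libraries, 1.03, 1.44 and 1.201 CPM in the CpG libraries, and 52.8, 57.9 and 53.7 CPM in the naive libraries. The groups were again fully separate. In CpG cells Lta was 44.2-fold lower than in naive cells (-5.47 ± 0.23, edgeR adjusted p = 5.44e-07), from 65 counts over the CpG libraries and 3198 over the naive libraries. TLR cells stood 3.29-fold above CpG cells (1.72 ± 0.25, adjusted p = 0.000596) and 13.4-fold below naive cells (-3.75 ± 0.24, adjusted p = 1.64e-06).

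Ltb, the membrane anchor of the lymphotoxin heterotrimer, had 10.25 and 10.9 CPM in the TLR libraries, 254, 137 and 145 CPM in the CpG libraries, and 746, 855 and 840 CPM in the naive libraries. The groups did not overlap, and CpG replicate 1 stood above the other CpG libraries. Ltb was 4.56-fold lower in CpG cells than in naive cells (-2.19 ± 0.22, edgeR adjusted p = 5.93e-05). In TLR cells it was a further 16.9-fold below CpG cells (-4.08 ± 0.30, adjusted p = 1.18e-05), after a final step of 5 hours. Relative to naive cells TLR cells had 76.9-fold less (-6.27 ± 0.33, adjusted p = 5.57e-07). The 6 B cell markers were also lower in TLR than in CpG cells, by log2 fold changes from -1.30 for Cd79a to -4.95 for Ms4a1 (median -1.72). Ms4a1 is the gene of CD20. T and natural killer cells are known to express Lta and Ltb. All 8 natural killer cell markers were called lower in CpG than in naive cells, and of the 10 T cell markers 7 were called lower and 1 higher (Il7r, 4.05 CPM in TLR, 46.9 CPM in CpG and 4.11 CPM in naive libraries). Most of the T cell sum came from Cd2 (8.90 CPM in TLR, 166 CPM in CpG and 254 CPM in naive libraries), Lck (22.2 CPM in TLR, 55.2 CPM in CpG and 54.6 CPM in naive libraries) and Il7r, while each of the other 7 averaged at most 2.63 CPM in any group. Cd3e and Cd4 were at 0 counts in both TLR libraries, Cd8a in all 3 CpG libraries, and Ncr1 and Gzma in all 5 stimulated libraries. These genes passed the filter through the naive libraries alone, so against naive cells they could only be called lower. The part of these cells in the ligand levels was not tested. Within the 5 libraries of the common prefix, log2 fold changes for CpG against naive cells were -1.74 for Tnf, -5.40 for Lta and -2.59 for Ltb, those for TLR against CpG cells were 2.84, 1.94 and -3.69, and those for TLR against naive cells were 1.11, -3.45 and -6.29, all called. The common prefix holds 1 TLR library, so its TLR comparisons assume that this library varies like those of the other groups.

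**Figure D1:**
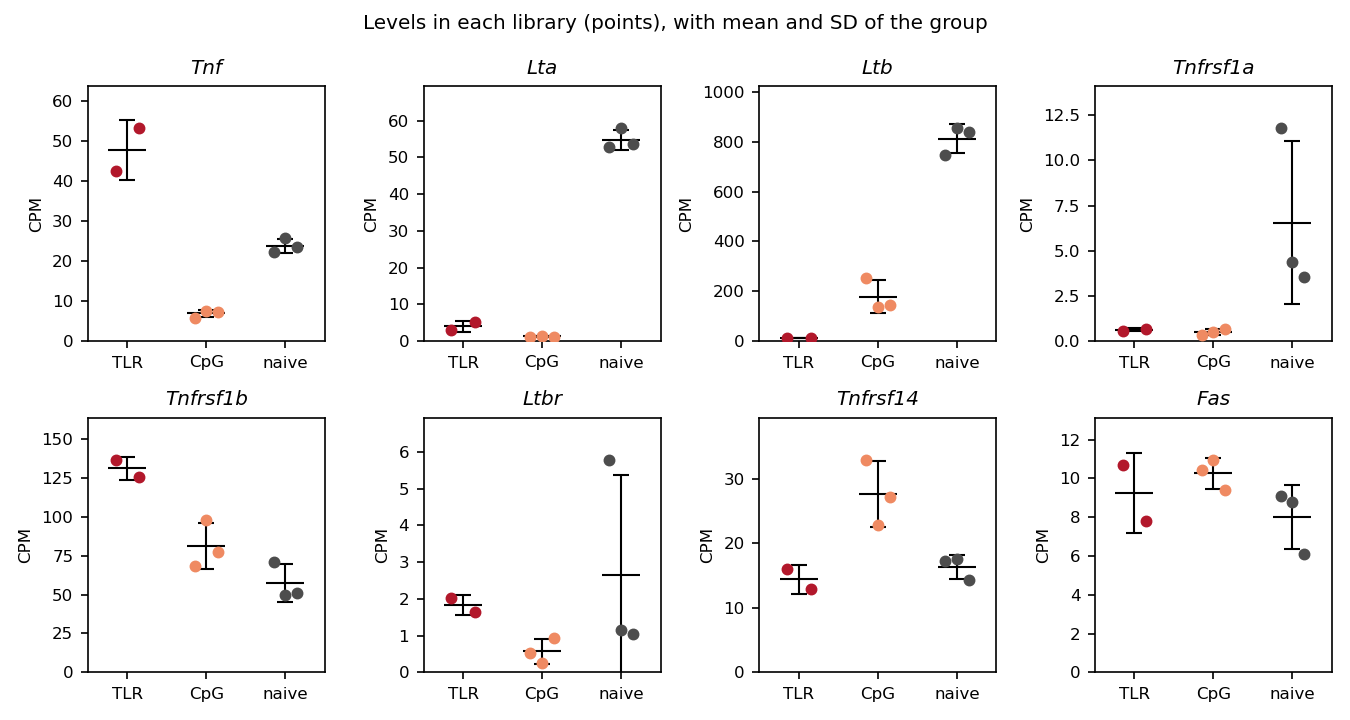
Level of each of the 8 genes in CPM, with 1 panel per gene and its own linear axis from 0. Points are libraries of the TLR (2), CpG (3) and naive (3) groups, and the bar with whiskers is the group mean with its SD (cut at 0 for Ltbr in naive cells). Tnf is highest in the TLR libraries (42.5 and 53.2 CPM), Lta and Ltb are highest in the naive libraries, and naive replicate 1 stands above the other naive libraries for Tnfrsf1a (11.8 CPM) and Ltbr (5.78 CPM).

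Set per kilobase of exon, which allows levels of different genes to be compared, the makeup of the ligand messages differed between groups. Tnf made up 74.4% and 74.9% of the summed level of the 3 ligand genes in the TLR libraries, 2.06% to 4.82% in the CpG libraries and 2.36% to 2.52% in the naive libraries. Ltb made up 19.4% and 16.6% in TLR, 94.1% to 97.5% in CpG and 90.5% to 91.2% in naive libraries. The Lta share was 6.23% and 8.53% in TLR libraries, 0.434% to 1.09% in CpG libraries and 6.40% to 7.02% in naive libraries, so its share in TLR cells lay near that of naive cells while its level did not. The summed level itself was 34.8 and 43.3 CPM per kb in TLR libraries, 96.0 to 172 in CpG libraries and 544 to 621 in naive libraries. Tnf thus took the larger part of a smaller total in TLR cells. The per-kb ratio of Tnf to Ltb was 3.83 and 4.52 in the TLR libraries, and the ratio of Ltb to Tnf was 19.5 to 47.3 in CpG libraries and 36.0 to 38.7 in naive libraries.

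**Figure D2:**
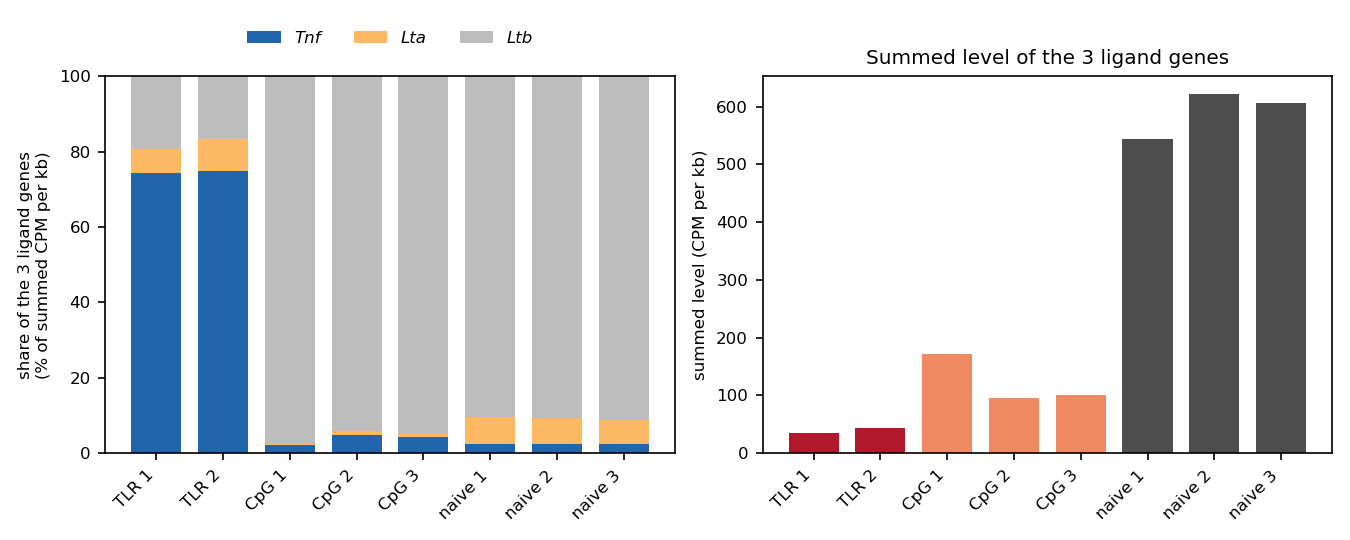
Left, share of Tnf, Lta and Ltb in the summed CPM per kb of the 3 ligand genes in each library, as stacked bars in percent. Right, the summed level in CPM per kb, with bars coloured by group. Tnf holds 74.4% and 74.9% in the TLR libraries, where the sum is lowest, and Ltb holds at least 90.5% in every CpG and naive library.

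The TNF receptor genes moved apart as well: Tnfrsf1a was lower in both stimulated groups than in naive cells, and Tnfrsf1b was higher. Tnfrsf1a, which encodes the death-domain receptor TNFR1, had 0.566 and 0.671 CPM in the TLR libraries, 0.323, 0.481 and 0.655 CPM in the CpG libraries, and 11.8, 4.36 and 3.55 CPM in the naive libraries. The stimulated libraries held 5 to 13 counts each and overlapped with each other, while all naive libraries (68 to 226 counts) lay above them. Tnfrsf1a was 13.2-fold lower in CpG cells than in naive cells (-3.72 ± 0.54, edgeR adjusted p = 0.000474) and 10.5-fold lower in TLR cells (-3.39 ± 0.62, adjusted p = 0.00102). Without naive replicate 1 these were 8.03-fold (adjusted p = 0.000483) and 6.38-fold (adjusted p = 0.000788), and within the 5 libraries of the common prefix 6.92-fold (adjusted p = 0.00238) and 5.87-fold (adjusted p = 0.00502, from 1 TLR library). TLR cells differed from CpG cells by 0.33 ± 0.64 on the log2 scale (adjusted p = 0.717), a difference that these few counts cannot place on either side of 0.

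Macrophages are known to express Tnfrsf1a and Ltbr, and 11 of the 12 macrophage and monocyte markers were called lower in CpG and in TLR cells than in naive cells. Their sum was largest in naive replicate 1 (1301 CPM), the library in which Tnfrsf1a and Ltbr were also highest. Of these markers, Cd14 was at 0 in TLR replicate 1 and CpG replicate 2, and Mertk in CpG replicate 1. The part of macrophage RNA in the Tnfrsf1a, Ltbr and Tnfrsf1b levels was not tested.

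Tnfrsf1b, the gene of TNFR2, had 136 and 126 CPM in the TLR libraries, 68.6, 97.6 and 77.2 CPM in the CpG libraries, and 71.2, 49.4 and 51.2 CPM in the naive libraries. Both TLR libraries lay above all others, and CpG and naive libraries overlapped. Tnfrsf1b was 2.29-fold higher in TLR cells than in naive cells (1.19 ± 0.19, edgeR adjusted p = 0.000393). It was 1.61-fold higher in TLR cells than in CpG cells (0.69 ± 0.19, adjusted p = 0.0158), and the call was lost without TLR replicate 1 (adjusted p = 0.0949) or TLR replicate 2 (0.053), each of which leaves 1 TLR library. CpG cells were 1.42-fold above naive cells (0.50 ± 0.17, adjusted p = 0.0363). That call was lost when any of naive replicate 2, naive replicate 3, CpG replicate 2 or CpG replicate 3 was left out (adjusted p = 0.134, 0.126, 0.123 and 0.0582) or when only those groups were fitted (0.056). Without naive replicate 1, the naive library with the highest Tnfrsf1b, the log2 fold change was larger (0.68, edgeR adjusted p = 0.00906). Within the common prefix it was 0.79. Per kilobase, Tnfrsf1b exceeded Tnfrsf1a 164-fold and 127-fold in the TLR libraries, 80.0-fold to 144-fold in the CpG libraries, and 4.10-fold, 7.70-fold and 9.78-fold in naive replicates 1 to 3, with the lowest ratio in the library with the most macrophage marker RNA. The part of macrophage RNA in either side of this ratio was not tested.

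Ltbr, the receptor gene for the lymphotoxin heterotrimer, was scarce: 2.04 and 1.65 CPM in the TLR libraries, 0.516, 0.267 and 0.928 CPM in the CpG libraries, and 5.78, 1.152 and 1.044 CPM in the naive libraries. Counts were 36 and 32 in the TLR libraries, 8, 5 and 17 in the CpG libraries and 111, 23 and 20 in the naive libraries, where replicate 1 stood apart. Ltbr was called 4.61-fold lower in CpG cells than in naive cells (-2.21 ± 0.73, edgeR adjusted p = 0.0334). Without naive replicate 1 the difference was 1.93-fold (adjusted p = 0.172), within the common prefix 1.84-fold (0.267), without CpG replicate 1 the adjusted p was 0.0809 and without CpG replicate 2 it was 0.106. Both TLR libraries lay above all CpG libraries, and the difference (1.68 ± 0.80, adjusted p = 0.125) was not called, though it was with those groups fitted alone (0.0427) or without naive replicate 1 (0.0256). TLR against naive cells gave -0.53 ± 0.76 (adjusted p = 0.564), and 0.73 without naive replicate 1.

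**Figure D3:**
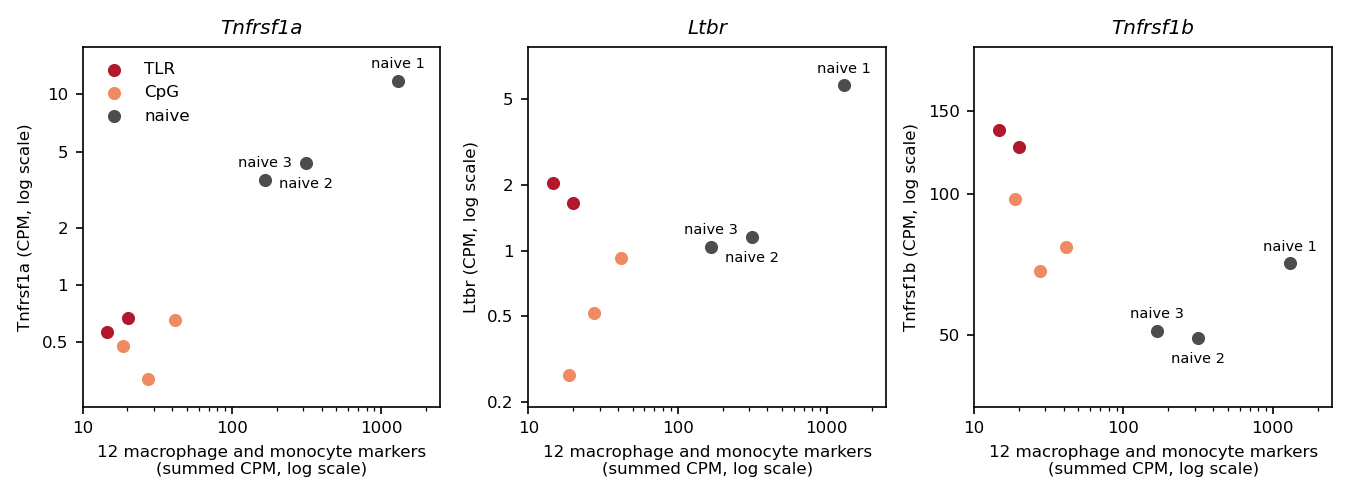
Level of Tnfrsf1a, Ltbr and Tnfrsf1b (CPM, log axis) against the summed CPM of 12 macrophage and monocyte markers (log axis) in each of the 8 libraries, coloured by group, with the naive libraries named. Naive replicate 1, with 1301 CPM of marker RNA, has the highest Tnfrsf1a and Ltbr, and the TLR libraries, with 14.6 and 20.03 CPM, have the highest Tnfrsf1b. Among the naive libraries, replicate 1 also has the highest Tnfrsf1b (71.2 CPM).

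Tnfrsf14, the gene of HVEM, was highest in CpG cells. It had 16.0 and 12.9 CPM in the TLR libraries, 32.9, 22.8 and 27.1 CPM in the CpG libraries, and 17.3, 17.5 and 14.25 CPM in the naive libraries. All CpG libraries lay above the other 5, which overlapped. CpG cells were 1.69-fold above naive cells (0.75 ± 0.18, edgeR adjusted p = 0.00671), and TLR cells 1.91-fold below CpG cells (-0.93 ± 0.20, adjusted p = 0.00515). The second call was lost without TLR replicate 2 (adjusted p = 0.0538). TLR and naive cells differed by -0.18 ± 0.20 (adjusted p = 0.451). Of the binding partners of HVEM, the genes of the inhibitory receptors BTLA and CD160 and of LIGHT were all called lower in CpG and in TLR cells than in naive cells (3 of 3 each, median log2 fold changes -2.57 and -2.64). Of all tested genes, 21.9% and 29.7% were called lower in these comparisons. Cd160 was scarce, with means of 0.410 CPM in TLR, 0.542 CPM in CpG and 3.32 CPM in naive libraries. The part of other cell types in its level was not tested. Btla, well expressed in B cells, averaged 152 ± 38.0 CPM in TLR, 329 ± 61.0 CPM in CpG and 854 ± 104 CPM in naive libraries (SD), and was also called lower in TLR than in CpG cells (-1.12 ± 0.21, adjusted p = 0.00244). Tnfsf14 had only 4, 6 and 41 counts over the TLR, CpG and naive libraries. It passed the filter through the naive libraries alone, so against naive cells it could only be called lower.

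Fas was not called in any comparison. It had 10.7 and 7.80 CPM in the TLR libraries, 10.45, 10.95 and 9.39 CPM in the CpG libraries, and 9.12, 8.77 and 6.11 CPM in the naive libraries. All CpG libraries lay above all naive libraries, by a small margin. The log2 fold changes were 0.36 ± 0.22 for CpG against naive cells (edgeR adjusted p = 0.21), -0.15 ± 0.25 for TLR against CpG cells (0.665) and 0.21 ± 0.25 for TLR against naive cells (0.478). Fasl, the gene of its ligand, had 0 counts over the TLR libraries, 1 over the CpG libraries and 29 over the naive libraries, and was at least 6.16-fold lower in TLR than in naive cells when set against 3 counts over the group. Naive replicates 1 to 3 held 12, 3 and 14 Fasl counts, beside natural killer cell marker sums of 84.0, 18.03 and 73.4 CPM. The part of natural killer cells in the Fasl level was not tested.

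Of the 8 genes, 7 were called in CpG against naive cells (2 higher, 5 lower, median log2 fold change -1.99), where 45.5% of all 13964 tested genes were called (23.5% higher, 21.9% lower, median 0.011). In TLR against CpG cells 5 were called (3 higher, 2 lower, median 0.51), beside 38.8% of all genes (19% higher, 19.8% lower, median -0.021). In TLR against naive cells 5 were called (2 higher, 3 lower, median -0.35), a share close to the 61.2% of all genes (31.6% higher, 29.7% lower, median 0.011). Within the common prefix, 6 members were called in CpG against naive cells, and with its 1 TLR library 5 in each TLR comparison. Ordered by CPM per kb, the levels in TLR cells ran Tnfrsf1b, Tnf, Tnfrsf14, Ltb, Fas, Lta, Ltbr and Tnfrsf1a. In CpG cells the order was Ltb, Tnfrsf1b, Tnfrsf14, Fas, Tnf, Lta, Ltbr and Tnfrsf1a, and in naive cells Ltb, Lta, Tnfrsf1b, Tnf, Tnfrsf14, Fas, Tnfrsf1a and Ltbr. Neighbours in the order whose ranges of mean ± SD overlapped were, in TLR cells, Tnfrsf1b (34.3 ± 1.99 CPM per kb) with Tnf (29.2 ± 4.62), and Fas (4.49 ± 0.996) with Lta (2.93 ± 1.08). In CpG cells they were Tnfrsf1b (21.2 ± 3.89) with Tnfrsf14 (19.2 ± 3.54), Fas (4.98 ± 0.387) with Tnf (4.19 ± 0.572), and Ltbr (0.242 ± 0.142) with Tnfrsf1a (0.188 ± 0.0642). In naive cells they were Tnfrsf1b (14.99 ± 3.16) with Tnf (14.5 ± 1.06), and Tnfrsf1a (2.53 ± 1.75) with both Fas (3.88 ± 0.798) and Ltbr (1.13 ± 1.15). Tnfrsf1b and Tnfrsf14 change places in CpG cells when the longest transcript is used as length.

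**Figure D4:**
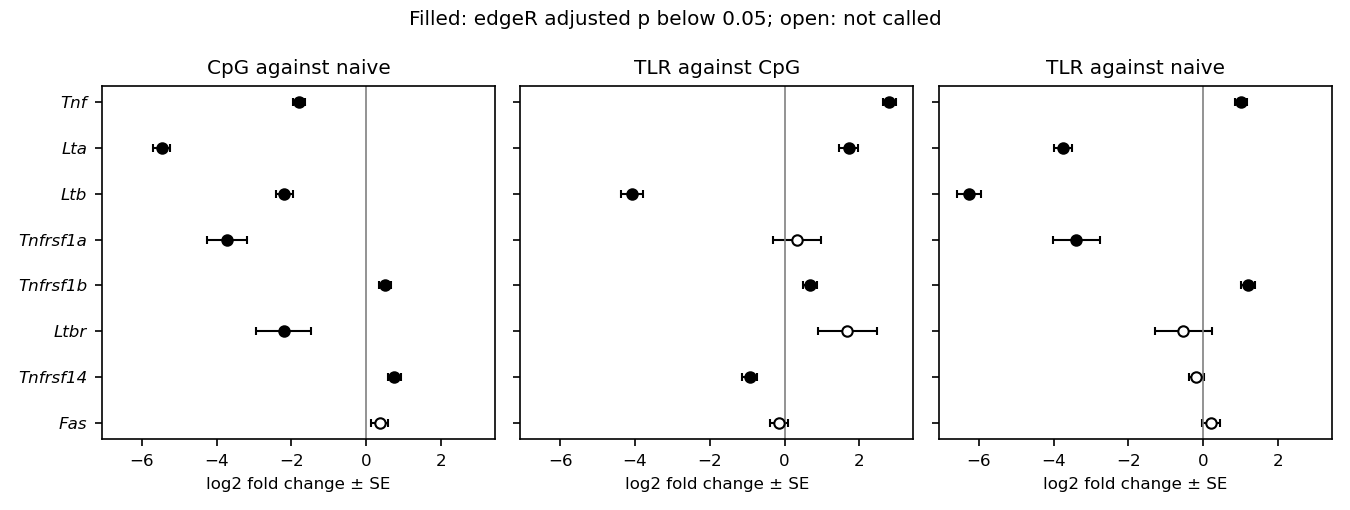
Log2 fold change with its SE for the 8 genes in the 3 comparisons, each in its own panel. Filled points have an edgeR adjusted p below 0.05 and open points do not. Ltb lies at -2.19, -4.08 and -6.27 across the panels, Tnf at -1.79, 2.80 and 1.01, and Fas is open in all.

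The list counts below stand beside the shares of all tested genes. These were 23.5% higher and 21.9% lower in CpG against naive cells, and 19% and 19.8% in TLR against CpG cells. In TLR against naive cells they were 31.6% and 29.7%. The other TNF family ligands were mostly scarce in these cells: of 15 listed, 14 were found and 8 passed the filter. In CpG against naive cells 1 was called higher (Eda, ectodysplasin A) and 4 lower (Tnfsf10, Tnfsf14, Tnfsf18 and Fasl), and in TLR against naive cells 1 was higher and 3 lower. Tnfsf14, Tnfsf18 and Fasl passed the filter through the naive libraries alone, so against naive cells they could only be called lower. In TLR against CpG cells 1 was lower and none higher in the edgeR fit. The median log2 fold changes of the 8 were -0.47 for CpG against naive, -0.59 for TLR against CpG (-0.037 with Fasl set to no change, since both groups lie under 3 counts) and -0.20 for TLR against naive. Eda averaged 0.802 ± 0.253 CPM in TLR, 2.12 ± 0.271 CPM in CpG and 0.309 ± 0.0523 CPM in naive libraries. Tnfsf18, the gene of GITR ligand, had 1, 8 and 74 counts over the TLR, CpG and naive libraries.

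Among 19 tested genes of other TNF family receptors, 4 were called higher and 6 lower in CpG against naive cells (median log2 fold change -0.73), 8 higher and 5 lower in TLR against CpG cells (0.38), and 7 higher and 6 lower in TLR against naive cells (-0.082). Tnfrsf8, the gene of the activation marker CD30, averaged 28.3 ± 5.89 CPM in TLR libraries, 0.905 ± 0.772 CPM in CpG libraries and 0.944 ± 0.373 CPM in naive libraries, a log2 fold change of 4.92 ± 0.63 for TLR against CpG cells (edgeR adjusted p = 0.000263). The costimulatory receptor gene Tnfrsf9 (4-1BB) averaged 12.1 ± 1.36 CPM in TLR, 0.304 ± 0.393 CPM in CpG and 0.603 ± 0.219 CPM in naive libraries, and was named after its values were seen. Tnfrsf10b, the mouse receptor gene for TRAIL, averaged 11.8 ± 3.02 CPM in TLR, 3.68 ± 1.44 CPM in CpG and 1.36 ± 0.271 CPM in naive libraries, and was called higher in all 3 comparisons. Ngfr, the low-affinity neurotrophin receptor gene, ran the other way, with 3 counts over the TLR libraries, 74 over the CpG libraries and 716 over the naive libraries. Tnfrsf18, the gene of GITR, averaged 2.01 ± 0.284 CPM in TLR, 6.55 ± 0.615 CPM in CpG and 12.7 ± 1.61 CPM in naive libraries, and was called lower in all 3 comparisons, although 27.2% of its exon bases overlap a gene on the opposite strand, which the counting cannot separate.

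Of 16 genes of the signalling complex that forms at TNFR1, 0 were called higher and 6 lower in CpG against naive cells (median log2 fold change -0.23), 0 higher and 5 lower in TLR against CpG cells (-0.13), and 2 higher and 7 lower in TLR against naive cells (-0.24). The adaptor gene Traf5 averaged 36.0 ± 5.22 CPM in TLR, 63.4 ± 6.47 CPM in CpG and 132 ± 4.75 CPM in naive libraries. Ikbkb, which encodes the kinase IKK-beta, averaged 161 ± 6.73 CPM in TLR, 255 ± 25.3 CPM in CpG and 475 ± 31.7 CPM in naive libraries. Birc3 (cIAP2) and Sharpin (of the linear ubiquitin ligase) were likewise called lower in each of the comparisons. Rbck1, of the same ligase, and Tab1, of the TAK1 complex, were the genes called higher in TLR against naive cells.

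Of 11 genes of brakes on this pathway, 4 were called higher and 3 lower in CpG against naive cells (median -0.055), 6 higher and 0 lower in TLR against CpG cells (0.51), and 6 higher and 3 lower in TLR against naive cells (0.51). Tnfaip3, which encodes the ubiquitin-editing enzyme A20, averaged 375 ± 108 CPM in TLR, 248 ± 36.9 CPM in CpG and 102 ± 17.6 CPM in naive libraries, and was called higher in all 3 comparisons, with an edgeR adjusted p of 0.0448 for TLR against CpG cells. Tnip1, an A20 partner, averaged 315 ± 35.1 CPM in TLR, 187 ± 14.6 CPM in CpG and 100.4 ± 6.86 CPM in naive libraries. The receptor-associated gene Traf1 had 340 and 238 CPM in the TLR libraries, 154, 186 and 199.9 CPM in the CpG libraries and 62.5, 46.9 and 50.8 CPM in the naive libraries, with no overlap between groups. Nfkbia, the gene of the NF-kB inhibitor IkB-alpha, was higher in CpG than in naive cells (1.89 ± 0.16, adjusted p = 2.25e-05) and not called between TLR and CpG cells (0.30 ± 0.17, adjusted p = 0.199). The 3 brakes called lower in both stimulated groups than in naive cells were Cyld, Otulin and Tax1bp1.

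**Figure D5:**
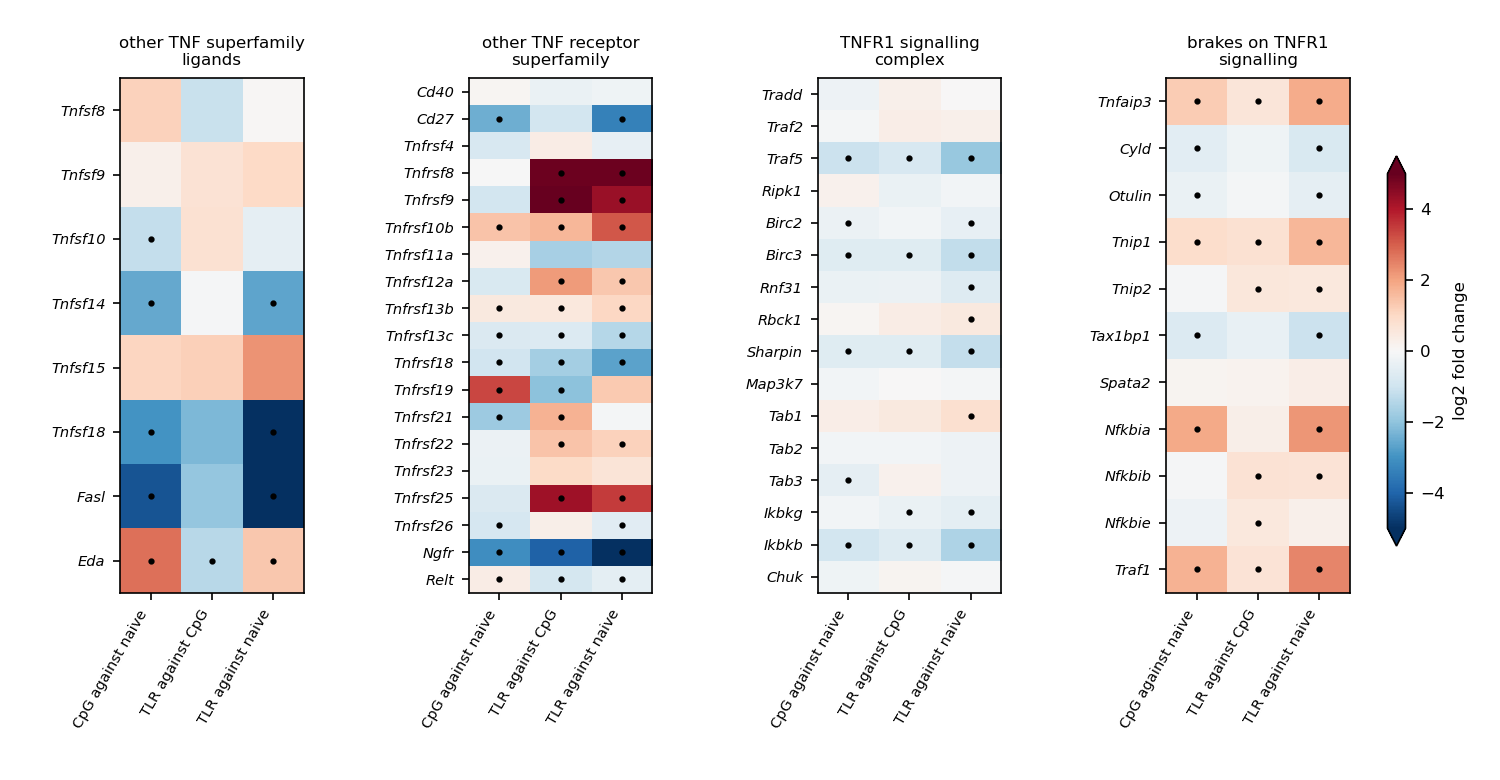
Log2 fold changes (colour, limited to 5 in either direction) of the tested genes of 4 lists in the 3 comparisons, with a dot where the edgeR adjusted p was below 0.05. Among the genes with large changes are Tnfrsf8, Tnfrsf9 and Tnfrsf25, higher in TLR cells, and Ngfr, lower in every column. In TLR against CpG cells the 11 brakes hold 6 higher and 0 lower calls, and the 16 signalling complex genes 0 higher and 5 lower. Of all tested genes, 19% were called higher and 19.8% lower in that comparison. Colours of Fasl, Tnfsf18 and Ngfr rest on 3 or fewer counts over the TLR libraries.

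Of 10 genes of the death-inducing complex, 2 were called higher and 1 lower in CpG against naive cells (median log2 fold change 0.19), 3 higher and 0 lower in TLR against CpG cells (0.18), and 2 higher and 0 lower in TLR against naive cells (0.23). Cflar, which encodes the caspase-8 inhibitor FLIP, averaged 182 ± 54.5 CPM in TLR, 126 ± 7.55 CPM in CpG and 102 ± 8.45 CPM in naive libraries. Casp8, an initiator caspase gene, was called higher in CpG than in naive cells (0.42 ± 0.11, edgeR adjusted p = 0.0123), and the gene of its substrate Bid was called lower (-0.52 ± 0.13, adjusted p = 0.00978), with 17.7% of its exon bases shared with a gene on the opposite strand. Of the 7 genes downstream of the lymphotoxin beta receptor, 0 were called higher and 4 lower in CpG against naive cells (median -0.28), 2 higher and 1 lower in TLR against CpG cells (0.22), and 0 higher and 3 lower in TLR against naive cells (-0.063). Map3k14, the gene of the kinase NIK, averaged 55.7 ± 2.02 CPM in TLR, 89.0 ± 12.1 CPM in CpG and 119 ± 7.41 CPM in naive libraries. Traf3, whose product holds NIK in check, averaged 158 ± 14.4 CPM in TLR, 136 ± 11.4 CPM in CpG and 236 ± 29.8 CPM in naive libraries. Nfkb2, the gene of p100 and p52, averaged 394 ± 110.2 CPM in TLR, 201 ± 5.60 CPM in CpG and 399 ± 63.1 CPM in naive libraries, with 18.1% of its exon bases shared with genes on the opposite strand.

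Among 8 tested genes that shed or cleave TNF and its receptors, 0 were called higher and 2 lower in CpG against naive cells (median log2 fold change -0.17), 2 higher and 1 lower in TLR against CpG cells (0.28), and 1 higher and 2 lower in TLR against naive cells (-0.20). The pair that moved in both of the first comparisons were Rhbdf1 and Rhbdf2, the iRhom genes, whose products bring ADAM17 to the cell surface. Rhbdf2 had 148 and 124 CPM in the TLR libraries, 82.0, 68.3 and 53.4 CPM in the CpG libraries, and 169, 151 and 155 CPM in the naive libraries. CpG libraries thus lay below all others, as they did for Tnf. Adam17 itself averaged 126 ± 6.50 CPM in TLR, 149 ± 11.7 CPM in CpG and 182 ± 14.4 CPM in naive libraries, and was called lower in TLR than in naive cells (-0.53 ± 0.12, edgeR adjusted p = 0.00388). Adam10, of a related protease, was called lower in TLR than in CpG cells (-0.63 ± 0.16, adjusted p = 0.01) and than in naive cells (-0.67 ± 0.16, adjusted p = 0.00413).

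Of 12 genes of proteins that bind AU-rich or stem-loop elements, or act on those proteins, 4 were called higher and 5 lower in CpG against naive cells (median log2 fold change -0.30), 4 higher and 0 lower in TLR against CpG cells (0.29), and 5 higher and 6 lower in TLR against naive cells (-0.29). Zfp36, the gene of tristetraprolin, averaged 306 ± 79.6 CPM in TLR, 203 ± 31.5 CPM in CpG and 576 ± 93.1 CPM in naive libraries. Its relative Zfp36l2 averaged 76.8 ± 4.70 CPM in TLR, 61.8 ± 7.43 CPM in CpG and 456 ± 177 CPM in naive libraries. Elavl1, which encodes the stabilising protein HuR, averaged 233 ± 9.83 CPM in TLR, 151 ± 9.92 CPM in CpG and 119 ± 12.2 CPM in naive libraries. Mapkapk2, the gene of the kinase MK2 that is known to inactivate tristetraprolin, averaged 332 ± 5.44 CPM in TLR, 193 ± 19.2 CPM in CpG and 177 ± 6.54 CPM in naive libraries.

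The genes around the ligand cluster did not move as a block. Of 17 tested protein-coding genes within 100 kb of Tnf, counting the 3 ligand genes, 1 was called higher and 7 lower in CpG against naive cells (median log2 fold change -0.48), 5 higher and 3 lower in TLR against CpG cells (-0.058), and 3 higher and 8 lower in TLR against naive cells (-0.61). The ligand genes make up 3 of the 7 lower calls in CpG against naive cells. In TLR against CpG cells they add Tnf and Lta to the higher calls and Ltb to the lower ones. In TLR against naive cells they add Tnf to the higher calls and Lta and Ltb to the lower ones. Bag6 was not called in any comparison, with 296 ± 9.46 CPM in TLR, 272 ± 5.74 CPM in CpG and 263 ± 4.71 CPM in naive libraries. Csnk2b, a casein kinase subunit gene, averaged 188 ± 0.875 CPM in TLR, 130.0 ± 14.8 CPM in CpG and 95.9 ± 1.86 CPM in naive libraries and was called higher in all 3 comparisons. The class I gene H2-D1, which has close copies that can share reads, averaged 496 ± 11.1 CPM in TLR, 989.9 ± 27.8 CPM in CpG and 1817 ± 80.5 CPM in naive libraries and was called lower in all 3. The myeloid gene Aif1 had 0.566 and 0.568 CPM in the TLR libraries, 1.68, 1.87 and 1.42 CPM in the CpG libraries and 25.3, 5.41 and 3.92 CPM in the naive libraries. Lst1, next to Ltb and also known from myeloid cells, had 0.793 and 0.620 CPM in TLR libraries, 3.74, 6.57 and 2.89 CPM in CpG libraries and 13.2, 5.56 and 3.39 CPM in naive libraries. On chromosome 6, Ltbr and Tnfrsf1a are close neighbours, and the third tested gene within 100 kb of Tnfrsf1a, Cd9, averaged 6.90 ± 0.391 CPM in TLR, 5.53 ± 0.937 CPM in CpG and 21.8 ± 6.66 CPM in naive libraries, also with its highest value in naive replicate 1.

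The genes whose profile over the 8 libraries lay closest to each member were found among 11707 genes by the root mean square distance between log2 CPM values centred on each gene's mean. For Tnf the closest was Cd86 (distance 0.32), the costimulatory ligand gene, with means of 99.0 CPM in TLR, 11.03 CPM in CpG and 53.6 CPM in naive libraries, followed by Baiap2 and Kcnd1. For Ltb it was Rnase6 (0.19), with means of 2.42 CPM in TLR, 44.7 CPM in CpG and 187 CPM in naive libraries, followed by Arhgef18 and Zfp831. For Lta the closest, Plaur (the urokinase receptor gene), lay at 0.53, with means of 7.41 CPM in TLR, 4.53 CPM in CpG and 92.2 CPM in naive libraries, followed by Marcks and Terb1. For the receptors the closest were Sulf2, Lcp2 and Timp2 for Tnfrsf1a, Hprt, Lman1 and Reep3 for Tnfrsf1b, Rxra, Cttn and Hpgds for Ltbr, Dclre1c, Pgls and Glb1l for Tnfrsf14, and Aph1a, Tlr2 and Sec22a for Fas, at distances of 0.11 (Aph1a) to 0.38 (Hpgds). The libraries share their groups, so that any gene with a like order of group means lies close, and the likeness is a description.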

How the data were processed

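Gene expression was measured in 8 RNA-seq libraries of mouse splenic B cells. Per the labels' protocols, total RNA was purified on columns with DNase treatment, and strand-specific libraries followed polyA selection. Per the submitters' processing notes, the authors used STAR, HTSeq and edgeR with build mm9, and for tool versions and the annotation the sources used here state none. Deposited values are raw counts per gene, with 5 summary lines set apart, and the names of the deposited tables say that counting ignored strand. Multiply aligned reads took 14.7% to 50.2% of all lines of a library, most in replicate 1 of each group. Symbols came from GENCODE M21 by identifier (32860 of 37583 matched), and no exon of the 8 genes overlaps another gene. Of the listed genes, Tnfsf12 and Ccl21a were not matched by symbol.

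Counts were fitted in R 4.3.3 with edgeR 4.0.16 (filterByExpr, TMM, quasi-likelihood, 1 mean per group, all 8 libraries), with p-values adjusted by Benjamini-Hochberg over 13964 genes and called below 0.05. The prior count was 0.125, and SEs were obtained as the log2 fold change over the square root of F. Where a group had 0 counts, a bound used 3 counts over the group, which covers counting error only. The fit was tested on counts simulated with the common dispersion (0.0421) for every gene and a small set of changed genes. That test does not cover spread that differs between genes or changes in many genes. Other settings tried were DESeq2 1.42.0, scaling by RLE or by library size, dropping the filter or asking for a mean of 1 CPM, fitting the compared groups alone, a replicate block, a term for the prefix, restriction to the common prefix, and leaving out each library. Within-group counts differed by more than sampling noise, so no library was treated as a repeat.

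The 8 genes and all lists were chosen with earlier results of these data known, so lists are described by counts and medians and given no test. Named by rule were the 8 genes, up to 4 called genes of each pathway list by smallest p, tested genes within 100 kb of Tnf or Tnfrsf1a, and the 3 nearest profiles of each member (mean of at least 1 CPM, log2 CPM with a prior count of 2). Tnfrsf9, Tnfrsf25 and members listed to explain a count were named after their values were seen. Results for some of the genes named by rule are not reported here. Sequences are from the RefSeq promoter table (GRCm38.p6) and GENCODE M21 transcripts. A looser kB pattern was found in 45.8% of windows and set aside after this was seen.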

Additional observations from a re-analysis of the deposited data

How the results depend on the processing

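Over 17 alternatives to each of the 24 member results (408 values), 390 kept their direction and their side of the threshold, 12 lost the call, 2 gained it and 4 changed direction. No call or direction changed for 16 of the 24 results, among them all results of Tnf, Lta and Ltb. Of the changes in direction, all were in differences that were not called. Over the libraries left out in turn, the log2 fold change of Fas ran from -0.40 to 0.055 for TLR against CpG cells and from -0.029 to 0.42 for TLR against naive cells, and that of Ltbr for TLR against naive cells from -0.91 to 0.73, with 0.58 in the common prefix only. Genes called in TLR against CpG cells ranged over the same omissions from 1683 to 2756 higher and from 1833 to 2869 lower, with the lowest counts without TLR replicate 1 (2647 and 2770 in all libraries), and members called from 3 to 6, with 3 without TLR replicate 2. Leaving out either TLR library leaves an arm of 1, assumed to vary like the other groups, and other causes were not tested. Deviations from the group means correlated positively in every same-numbered pair of libraries, from 0.00359 (naive and CpG replicate 3) to 0.325 (CpG and TLR replicate 1). Differently numbered pairs ran from -0.325 to 0.147, the highest for naive replicate 3 with CpG replicate 2. The 2 TLR libraries mirror each other in this measure. Whether the numbers pair the libraries is not given in the labels and was not settled. With a replicate block, 7, 5 and 5 members were called in the comparisons of CpG with naive, TLR with CpG and TLR with naive cells, as without it, and 3428 genes were higher and 3237 lower in CpG against naive cells. Without the filter the median log2 fold change of all genes was -0.10 for CpG against naive and -0.16 for TLR against naive cells, beside 0.011 for each with it. Depth limits Tnfrsf1a and Ltbr in the stimulated libraries (5 to 36 counts), and the smaller differences of Fas and Tnfrsf1b lie near the spread between libraries.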
